A study of Arabidopsis thaliana with 12 samples.

Results

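The interaction of valinomycin with the bacterium Pseudomonas syringae pv. tomato DC3000 (DC3000 below) was described in Arabidopsis thaliana seedlings: for each gene, the valinomycin effect in the presence of the bacterium minus the valinomycin effect without it. Of 20233 genes in the deposited table, the 18048 whose values averaged 1 FPKM or more across all 12 libraries were taken, and the interaction was called in 4449 of them. FPKM scales fragments by transcript length and library size, and was inferred here from the values as the unit. Seedlings 2 to 3 weeks old were infiltrated under vacuum and RNA was taken 6 h later. The labels name leaf as the tissue. There were 4 groups of 3 libraries, namely mock, 10 µM valinomycin, DC3000, and both agents together (both treatments below). All groups share the infiltration, and the labels give no accession or mutant line, no bacterial dose and no statement that libraries came from separate plants.

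Valinomycin is a cyclic ionophore that shuttles potassium through lipid membranes and so collapses the electrical potential across the inner membrane of mitochondria. DC3000 is a leaf pathogen that injects effector proteins into plant cells and makes coronatine, a mimic of the active jasmonate hormone. Coronatine binds the jasmonate receptor, the JAZ repressors are degraded, and MYC transcription factors then switch on jasmonate genes, including those of jasmonate synthesis and of the JAZ proteins themselves. Abscisic acid is the hormone of water deficit and acts through factors that bind ACGTG-containing promoter elements.

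Library totals ran from 1057472 to 1350272 FPKM and sequencing depth is unknown. The 4 groups separated on the first components of a principal component analysis, which held 57.3% and 25.2% of the variance. Valinomycin replicate 3 lay nearer to mock than the others of its group: regressed on the change caused by both treatments, its change from mock had a slope of 0.595, against 0.825 and 0.794 for the others. The summed level of 5 leaf mesophyll markers (RBCS1A, RCA, CA1, LHCB1.3, GLDP1) was 28300 to 30700 FPKM in mock, 15800 to 17700 after valinomycin, 15400 to 18200 after DC3000 and 11200 to 12700 with both treatments. Meristem and epidermis markers (5 of 6 in the table) summed to 284 to 441 FPKM in mock, 209 to 241, 129 to 162 and 106 to 123 in the same order. The sum of 5 guard cell markers was 19.8 to 29.8 FPKM in mock and 25.6 to 27.9 with both treatments. For 8 phloem and xylem markers it was 86 to 101 and 69 to 81.8. Of 5 root markers 1 was found in the table, at 0.0788 to 1.2 FPKM over the 12 libraries. In these bulk samples fewer cells of a type and less RNA per cell cannot be told apart.

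The interaction is reported as a log2 difference ± its standard error, on log2(FPKM + 1), with limma's Benjamini-Hochberg adjusted p over all tested genes. A value of 0 means that the effects of the single treatments add on this scale, which is multiplication of fold changes. The interaction was called in 24.7% of the tested genes: 947 genes (5.25%) were higher with both treatments than the single effects add up to, and 3502 (19.4%) were lower. The absolute interaction was at least 1 in 2303 of the called genes. The median over all tested genes was -0.291 and not 0. After median-of-ratios scaling of the libraries, in which mock replicate 3 had the lowest size factor at 0.735, the median was -0.006, and 2476 genes were called higher and 2207 lower. That scaling centres the median by its construction, so it cannot settle the balance of higher and lower calls. Scaling to the total of nuclear genes gave a median of -0.174, with 1197 genes higher and 2377 lower. Interactions of single genes are to be read beside the median of -0.291.

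Called genes were sorted by which other differences were called. Synergy means that both treatments differed from mock and from each single treatment, all in the direction of the interaction. Antagonism means that a response to the stronger single treatment was called and was called smaller when the other agent was present. Saturation means that both single treatments moved the gene the same way and their combination was not called back from the larger of them. Saturation held 2934 genes (65.9% of those called), antagonism 1060 (23.8%) and synergy 89 (2%), and 366 (8.23%) were unresolved. Mock enters the interaction and both single effects with opposite signs, so an error in the mock mean can move a gene towards saturation. Synergy and antagonism also need calls that use mock, beside a comparison of both treatments with a single treatment that does not.

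**Figure D1:**
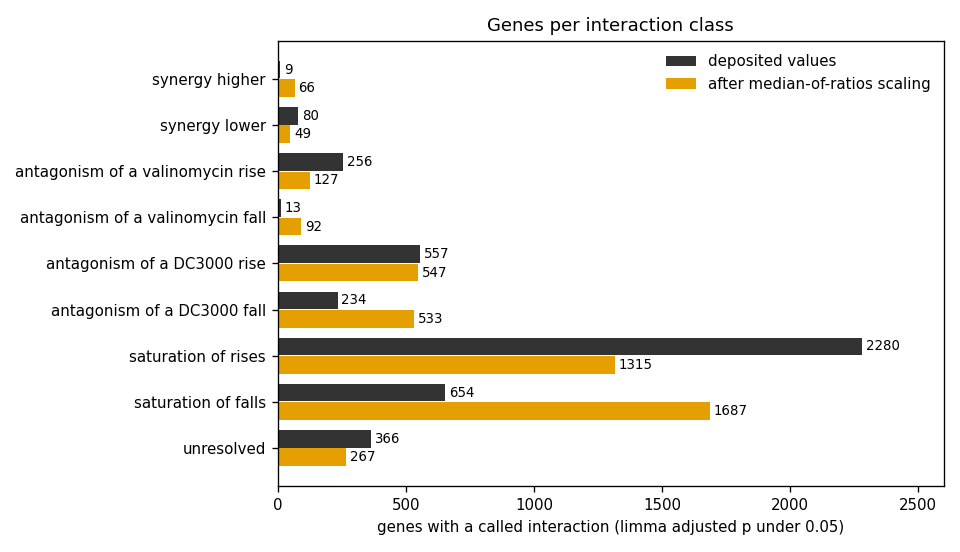
Number of genes with a called interaction in each class (horizontal axis, genes), with the deposited values in black and after median-of-ratios scaling in orange. Saturation of rises went from 2280 to 1315 genes and saturation of falls from 654 to 1687, while antagonism of a DC3000 rise went from 557 to 547.

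**Figure D2:**
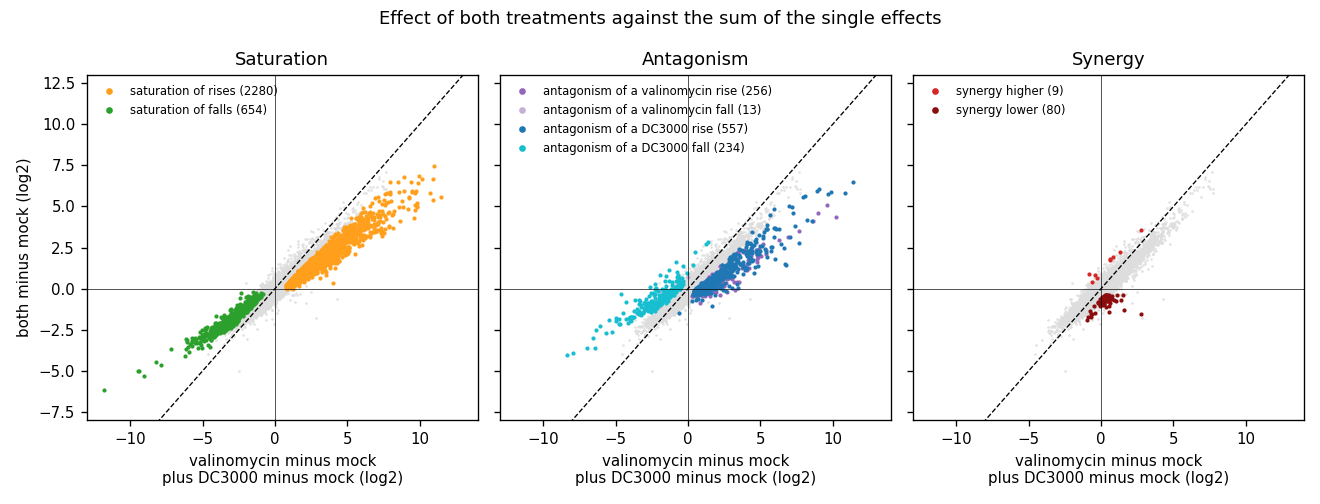
Difference between both treatments and mock (vertical axis, log2) against the sum of the 2 single-treatment differences from mock (horizontal axis, log2). Each point is a gene, coloured by class over genes with no called interaction in grey. Saturation points lie between the dashed line of exact addition and 0, and the 89 synergy genes lie beyond both. Both axes use the same mock libraries.

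The synergy class held 9 genes (0.0499% of those tested) with a higher level and 80 (0.443%) with a lower one. Its rule asks for a call against mock and each single treatment in the direction of the interaction. It does not ask that the single effects point that way. Among the 80, neither single effect was called in 65, only DC3000 in 9 and only valinomycin in 4. In 2, LTP3 and RD22 below, each agent alone raised the gene. Valinomycin was called against mock in 52.3% of all tested genes and DC3000 in 48.8%. After median-of-ratios scaling these counts were 66 and 49, and without mock replicate 1 they were 5 and 42. Of the 9 genes 7 were again in the class after scaling, and of the 80 genes 26 were. In all 9 genes the 3 libraries given both treatments lay above all 9 other libraries, and in 77 of the 80 they lay below all others. The rule chose the genes on these same libraries, so this separation describes the choice and adds no support.

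CER1 (AT1G02205; TAIR10.1 chromosome 1, 418416 to 422579, plus strand), an enzyme that makes the alkanes of the leaf wax, showed the pattern with little spread. It stood at 14.5, 12.6 and 8.06 FPKM in mock, at 12.3, 12.1 and 18.7 with valinomycin, at 31.1, 36.1 and 21.7 with DC3000, and at 4.2, 3.73 and 4.37 with both treatments. DC3000 alone raised it, valinomycin alone had no called effect, and the combination was below every other library. The interaction was -2.84 ± 0.32 (limma adjusted p = 2.99e-05).

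LTP3 (AT5G59320; chromosome 5, 23928954 to 23929816, plus strand), a secreted lipid transfer protein induced by abscisic acid, had the largest interaction of the class. Its values were 5.27, 13.6 and 4.11 FPKM in mock, 13.7, 11.1 and 34.2 with valinomycin and 11.2, 29.4 and 26.9 with DC3000. With both treatments they were 2.15, 2.08 and 1.05. Each single treatment raised the gene, their combination lowered it below mock, and the interaction was -4.26 ± 0.63 (limma adjusted p = 0.000287). RD22, a dehydration-responsive gene of the abscisic acid pathway, did the same at a higher level. It stood at 165, 159 and 144 FPKM in mock, 241, 286 and 279 with valinomycin, 226, 300 and 264 with DC3000, and 108, 132 and 116 with both treatments. Its groups did not overlap between each single treatment and the combination (interaction -1.92 ± 0.2, limma adjusted p = 1.33e-05). EXPA16, an expansin that loosens cell walls, had means of 10.4 ± 0.345 FPKM (SD, n = 3) in mock, 7.73 ± 2.41 after valinomycin, 22.2 ± 5.4 after DC3000 and 3.34 ± 0.29 with both. CER1, LTP3, EXPA16 and RD22 stayed in this class after median-of-ratios scaling. Chosen after their values were seen, KCS2, an enzyme that elongates fatty acids for wax and suberin, and GPAT4, an enzyme of cutin synthesis, were also in the class, with interactions of -2.05 and -0.99. XCP2, a peptidase of xylem vessels, was in the class too, but its call was lost after scaling (limma adjusted p = 0.0398 and then 0.29).

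Of the 9 genes with synergy towards a higher level, 4 reached a group mean of 10 FPKM. AT5G65380 (chromosome 5, 26122937 to 26126560, minus strand), annotated as a MATE efflux transporter, stood at 20.1, 20.9 and 14 FPKM in mock, 27.1, 24.5 and 13.9 with valinomycin and 29.6, 27.6 and 17.3 with DC3000. Neither single difference from mock was called. With both treatments it stood at 66.3, 54.2 and 72.2 FPKM (interaction 1.15 ± 0.35, limma adjusted p = 0.0285), a call lost in 5 of 22 other settings, with a highest adjusted p of 0.0674. CYP707A1, the enzyme that breaks down abscisic acid by hydroxylation, had 3.5, 4.32 and 1.67 FPKM in mock, 4.12, 3.42 and 3.17 after valinomycin, 7.55, 8.46 and 7.34 after DC3000 and 16.4, 21.9 and 15.8 with both. The combination was 2.32-fold above DC3000 alone, with no overlap between libraries (interaction 0.92 ± 0.31, limma adjusted p = 0.0437). This call is weak: it was lost in 13 of 22 other settings, although not after median-of-ratios scaling (limma adjusted p = 0.00647). PUR4, an enzyme of purine synthesis, had a mean of 12.5 ± 0.543 FPKM with both treatments against 9.32 ± 1.57 in mock, 8.63 ± 0.719 with valinomycin and 6.15 ± 0.977 with DC3000, and counted as antagonism of a DC3000 fall after scaling. AT5G28237, annotated as a pyridoxal phosphate-dependent enzyme, was near 0 in mock and with valinomycin (means of 0.0636 and 0.073 FPKM) and had means of 6.19 ± 1.91 with DC3000 and 11.4 ± 1.06 with both, and its call was lost in 7 of 21 settings. The other 5, named after their values were seen, were VIM2, VIM4, ACA2, DUR and AT2G26692.

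**Figure D3:**
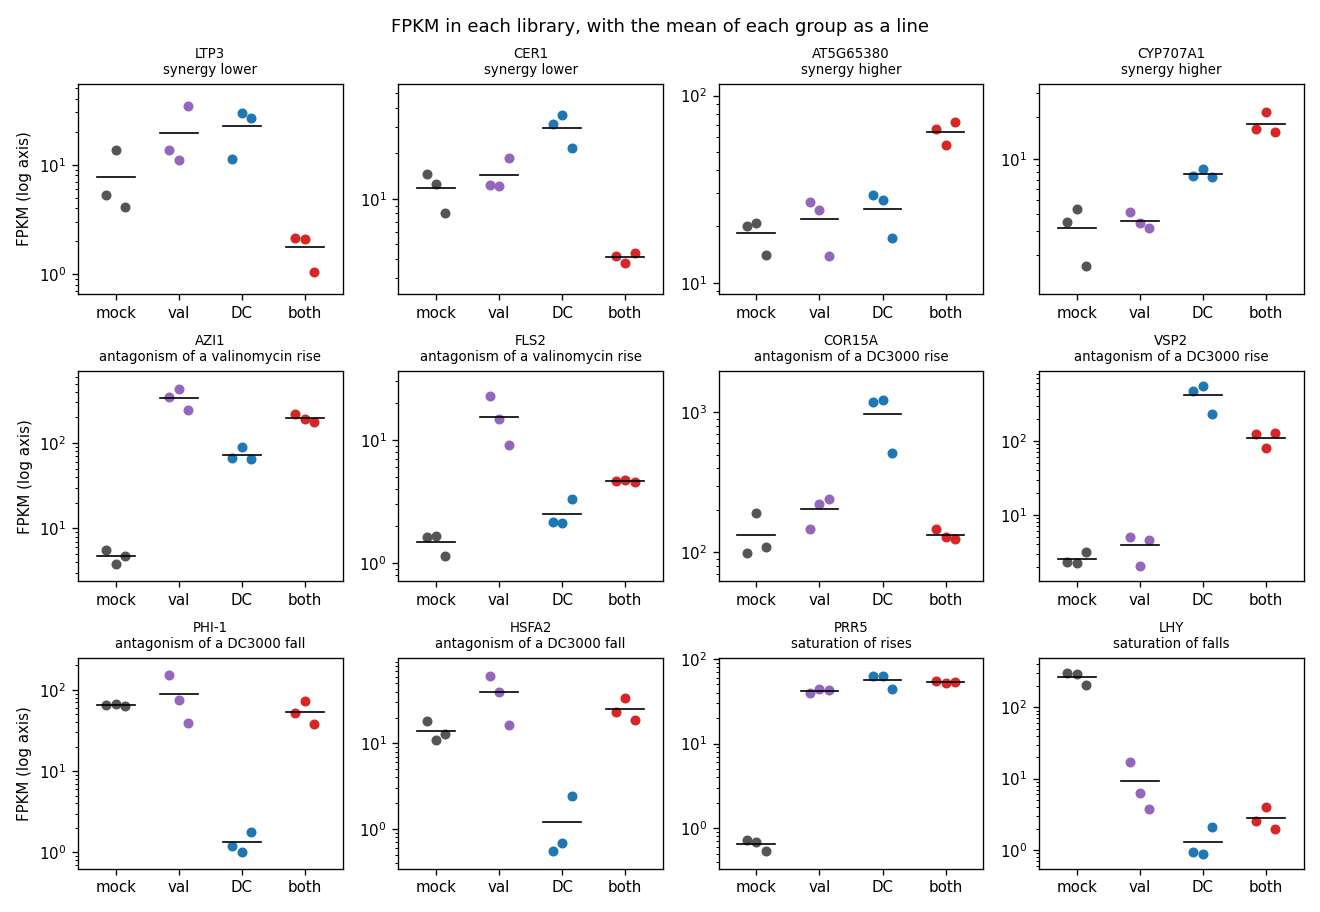
FPKM of 12 genes in each library (vertical log axis), by group: mock, valinomycin (val), DC3000 (DC) and both treatments. Points are libraries, lines are means of 3, and titles give the class. For COR15A the libraries given both treatments (125 to 147) sit at the level of mock and below all DC3000 libraries (510 to 1230), and for PHI-1 the DC3000 libraries (1.01 to 1.78) sit below all others.

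The largest antagonism class was that of DC3000 rises: 557 genes (3.09% of those tested) rose with DC3000 and were lower when valinomycin was also present. In 280 of them the combination was no longer called different from mock, whereas it was called in 60.3% of all tested genes, higher in 37.2%. Valinomycin alone also raised 279 of the 557 (it raised 38.5% of all tested genes and moved 52.3%), and only DC3000 was called against mock in 277. These single comparisons entered the class rule, so the counts describe it. After median-of-ratios scaling 404 of the 557 were in the same class. DC3000 replicate 3 was the lowest of its group for COR15A, RD29A, VSP2 and AOC2, and the class held 772 genes without it and 205 without DC3000 replicate 2.

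Genes of abscisic acid and water deficit were mostly lower with both treatments than with DC3000. Of 26 tested genes of that list, 16 had a called interaction, 15 lower and 1 higher, against 24.7% of all tested genes. Their median interaction was -1.73, against -0.291 for all tested genes, and -1.42 against -0.006 after scaling. By class, 8 were antagonism of DC3000 rises, 6 saturation of rises and 2 synergy. In the direct comparison of both treatments with DC3000, 14 of the 26 were lower (13.5% of all tested genes were) and 3 were higher.

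COR15A (AT2G42540; chromosome 2, 17710441 to 17712330, minus strand), a chloroplast protein that protects membranes during freezing and drought, had the clearest loss. It stood at 99.6, 191 and 109 FPKM in mock, 148, 223 and 241 with valinomycin, 1180, 1230 and 510 with DC3000, and 147, 130 and 125 with both treatments. The combination lay 7.27-fold below DC3000 alone and within the range of mock (interaction -3.39 ± 0.44, limma adjusted p = 9.85e-05). RD29A (AT5G52310; chromosome 5, 21240717 to 21243644, plus strand), a marker gene of desiccation, was raised by each agent, from 14.8, 34.8 and 10.2 FPKM in mock to 98.9, 101 and 63.9 with valinomycin and 125, 149 and 73 with DC3000. With both it stood at 50.4, 53.5 and 38.3, below all valinomycin and all DC3000 libraries (interaction -3.46 ± 0.5, limma adjusted p = 0.000248). The stress proteins KIN1, KIN2, ERD10 and COR47, which are dehydrins or similar hydrophilic proteins, were in the same class. KIN2 had means of 434 FPKM in mock, 554 after valinomycin, 1310 after DC3000 and 463 with both, and ERD10 had 109, 204, 320 and 101 in the same order. RAB18 and RD29B, classic targets of abscisic acid, were lower with both treatments than with DC3000 (log2 differences of -2.1 and -2.5, limma adjusted p = 0.0171 and 0.0237). Their interactions were not called, with values of -1.24 ± 0.83 and -1.14 ± 1.06 and wide spread between DC3000 libraries. Of the list's other members NCED3, the rate-limiting enzyme of abscisic acid synthesis, the phosphatases ABI1, ABI2 and HAI2, the NAC factor RD26 and the late embryogenesis protein LEA14 counted as saturation, with no called difference between both treatments and DC3000. RD26 stood at means of 10.5, 30.6, 207 and 149 FPKM in mock, valinomycin, DC3000 and both. Beside CYP707A1, its relative CYP707A3 followed valinomycin alone, with means of 2.92, 14.8, 2.11 and 12.7 FPKM, and its interaction was not called (0.15 ± 0.37).

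The promoters of RD29A and COR15A are shown because both genes were lower with both treatments than with DC3000 and hold known drought elements. They were picked for holding them. Each line gives the 250 bases before the annotated start (RefSeq, TAIR10.1, gene strand): RD29A from chr5:21240467-21240716 on the plus strand, COR15A from chr2:17712331-17712580 on the minus strand. Capitals mark CCGAC, the core of the drought and cold element, and ACGTG, the core of the abscisic acid element, on either strand. The G-box CACGTG contains ACGTG and so is counted with it.
RD29A: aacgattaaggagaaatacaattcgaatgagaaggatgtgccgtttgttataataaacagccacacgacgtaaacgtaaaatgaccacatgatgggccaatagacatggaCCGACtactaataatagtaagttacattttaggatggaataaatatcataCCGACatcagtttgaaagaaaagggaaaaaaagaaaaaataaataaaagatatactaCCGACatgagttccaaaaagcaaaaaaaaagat
COR15A: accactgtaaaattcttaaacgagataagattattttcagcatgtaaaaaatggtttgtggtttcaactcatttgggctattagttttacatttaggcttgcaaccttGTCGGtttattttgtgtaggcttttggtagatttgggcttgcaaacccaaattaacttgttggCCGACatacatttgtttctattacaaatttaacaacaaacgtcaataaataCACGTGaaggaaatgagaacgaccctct
RD29A held CCGAC 3 times and ACGTG in none of its 250 bases, and COR15A held CCGAC 2 times and 1 G-box. The same windows of LTP3 and of COR15B, a relative of COR15A in the same class, held 0 copies of CCGAC and 0 of ACGTG, and that of AOC2 held 0 copies of CACGTG. Among the promoters of all 17870 tested nuclear genes with such a window, 13.3% held CCGAC, 23.1% ACGTG and 7.35% CACGTG. Among the 557 genes with antagonism of a DC3000 rise the shares were 15.4%, 31.4% and 12.2%, and among the 2280 with saturation of rises 14%, 26.7% and 8.77%. In the 26 genes of the abscisic acid list they were 23.1%, 61.5% and 19.2%. These shares are descriptions with no test, and a match is not evidence of a bound site.

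In jasmonate synthesis 10 of 12 tested genes had a lower interaction by limma and 0 a higher one (12 and 0 at an unadjusted p under 0.05), against 19.4% lower over all tested genes, with a median of -2.33 (-1.99 after scaling, when 9 were lower). Each agent alone raised all 12 genes, against 38.5% of all tested genes for valinomycin and 31.6% for DC3000. With both treatments 5 of the 12 were lower than with DC3000 alone (13.5% of all tested genes): LOX2, AOS, and the allene oxide cyclases AOC1, AOC2 and AOC4, which together cover successive steps in the chloroplast. ACX1, a peroxisomal oxidase of the last steps, was higher. AOC2 (AT3G25770; chromosome 3, 9406669 to 9408071, plus strand), an allene oxide cyclase, rose from 2.63, 1.53 and 2.29 FPKM in mock to 47, 49.2 and 44.1 with valinomycin and to 608, 642 and 403 with DC3000. With both treatments it stood at 301, 259 and 268, above all valinomycin libraries and below all DC3000 libraries (interaction -4.9 ± 0.25, limma adjusted p = 1.72e-08). AOS, the allene oxide synthase before it, had 756, 846 and 475 FPKM with DC3000 and 401, 305 and 363 with both (interaction -2.21 ± 0.28, limma adjusted p = 7.08e-05). AOC1 counted as saturation after median-of-ratios scaling.

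Several genes of jasmonate output were also lower in the combination than with DC3000. VSP2 (AT5G24770; chromosome 5, 8500468 to 8502224, minus strand), a vegetative storage protein used as a readout of jasmonate and coronatine, stood at 2.31, 2.24 and 3.18 FPKM in mock and 4.96, 2.03 and 4.64 with valinomycin. It stood at 469, 547 and 231 with DC3000 and at 125, 80.6 and 126 with both. The libraries of the last groups did not overlap, and the combination was 3.75-fold below DC3000 (interaction -2.23 ± 0.44, limma adjusted p = 0.00258). CORI3, a coronatine-induced aminotransferase-like protein, had 319, 294 and 179 FPKM with DC3000 and 99.1, 77.8 and 83.6 with both (interaction -2.69 ± 0.37, limma adjusted p = 0.000155). CLH1, a chlorophyllase, and VSP1 followed the same course, with means of 1030 and 133 FPKM with DC3000 and 512 and 44.6 with both. Of the 10 tested output genes, 7 had a lower interaction (19.4% of all tested genes), 4 by antagonism and 3 by saturation. With both treatments 5 were lower than with DC3000 (13.5% of all tested genes). After scaling 5 of the 10 were called, 2 by antagonism and 3 by saturation, and VSP2 and CORI3 still counted as antagonism.

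In jasmonate breakdown no DC3000 rise was called smaller with both treatments. Of 9 tested genes 8 had a lower interaction (19.4% of all tested genes), all 8 by saturation. By limma 0 of the 9 were called lower with both treatments than with DC3000 (13.5% of all tested genes), 0 also at an unadjusted p under 0.05. The log2 differences ran from 0.05 (CYP94B1) to 0.8. CYP94B3, which oxidizes the active hormone, had 131, 115 and 111 FPKM with DC3000 and 141, 164 and 123 with both, from 0.392, 0.745 and 0.673 in mock. JAO4, an oxygenase that turns jasmonic acid into an inactive form, had means of 0.81 FPKM in mock, 29.1 after valinomycin, 239 after DC3000 and 318 with both. The difference between the synthesis and breakdown lists was not tested. The JAZ repressors lay between: 9 of 10 tested had a lower interaction (19.4% of all tested genes), 6 by saturation and 3 (JAZ3, JAZ6 and JAZ10) by antagonism. JAZ10 had 274, 284 and 139 FPKM with DC3000 and 138, 101 and 118 with both (interaction -2.35 ± 0.39, limma adjusted p = 0.000788). MYC2, the factor that JAZ proteins bind, had means of 148 and 124 FPKM in these groups and counted as saturation.

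**Figure D4:**
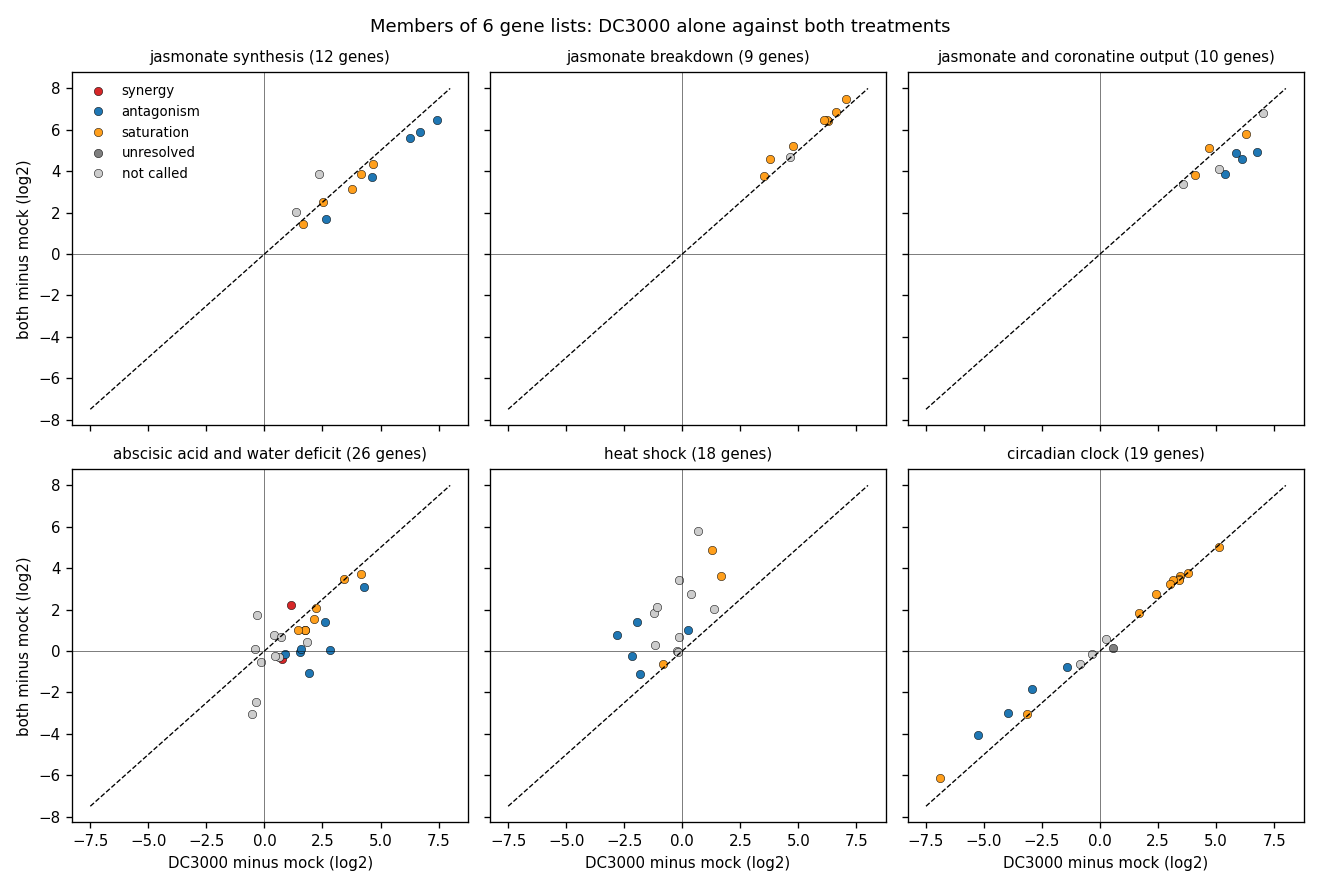
Members of 6 gene lists, with the difference between DC3000 and mock (horizontal axis, log2) against the difference between both treatments and mock (vertical axis, log2). Points are genes coloured by class, and the dashed line marks equal effects. Antagonism members of the jasmonate synthesis, jasmonate output and abscisic acid lists lie below the line, jasmonate breakdown members lie on or above it, and heat shock members lie on or above it. Both axes share the mock libraries.

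Antagonism in the other direction was found in 234 genes (1.3% of those tested), which fell with DC3000 and were higher when valinomycin was added. Of these 229 were in the same class after median-of-ratios scaling, which widened the class to 533 genes. Only DC3000 was called against mock in 131 of the 234, valinomycin also lowered 88 (13.8% of all tested genes), and in 88 the combination was no longer called different from mock (it was called in 60.3% of all tested genes). These comparisons too entered the class rule.

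PHI-1 (AT1G35140; chromosome 1, 12851983 to 12853235, plus strand), a phosphate-responsive gene of the cell surface, stood at 66, 66.2 and 64 FPKM in mock and 153, 75.2 and 39.6 with valinomycin. DC3000 took it to 1.19, 1.01 and 1.78, and with both treatments it stood at 51.7, 72.5 and 38. The combination was 40.7-fold above DC3000 and overlapped mock (interaction 4.3 ± 0.5, limma adjusted p = 3.5e-05). TCH3, a touch-induced calmodulin-like protein, had means of 175 FPKM in mock, 509 after valinomycin, 28.7 after DC3000 and 409 with both (interaction 2.41 ± 0.61, limma adjusted p = 0.0117). CPK28, a calcium-dependent kinase that restrains immune signalling, had means of 57.1, 43.1, 10.6 and 30.5 FPKM in the same order. HYH, a transcription factor of the light response, had means of 116, 29.3, 6 and 23.5 FPKM, and AT1G65490, an uncharacterized protein, 177, 35.9, 3.1 and 11.3. For AT1G65490 exact addition of the log2 falls would lie at -0.277 FPKM, a level that cannot occur.

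Most heat shock genes were higher with both treatments than with DC3000 alone. Of 18 tested genes 5 had a higher interaction and 3 a lower one (5.25% and 19.4% of all tested genes), with a median of 0.28 (0.55 after scaling, when 5 were higher and 1 lower). DC3000 alone lowered 8 of the 18 (17.2% of all tested genes), and valinomycin alone raised 12 (38.5%). With both treatments 15 were higher than with DC3000 (14.1% of all tested genes were), a comparison that includes the effect of valinomycin itself. HSFA2 (AT2G26150; chromosome 2, 11135624 to 11137792, plus strand), a heat shock factor that sustains the response, had 18.2, 10.8 and 12.7 FPKM in mock, 61.5, 39.7 and 16.5 with valinomycin, 0.55, 0.685 and 2.39 with DC3000, and 23, 33.4 and 18.5 with both. All libraries given DC3000 alone were below all others (interaction 2.33 ± 0.56, limma adjusted p = 0.00859). HSP101, a chaperone that takes protein aggregates apart, had means of 14.8, 50.6, 3.13 and 40.9 FPKM in mock, valinomycin, DC3000 and both (interaction 1.73 ± 0.39, limma adjusted p = 0.00565). MBF1C, a coactivator of the heat response, had 72.4 ± 2.74, 57.6 ± 20.8, 15.3 ± 1.82 and 61.1 ± 13.3 FPKM. An antisense gene overlaps 198 bases of its exons, and whether reads were assigned by strand is not known. Such overlaps also touch TCH3 (515 bases), HSP101 (101), MYC2 (3241), JAZ10 (29), WRKY40 (51), FRK1 (69), LUX (698), LNK2 (44), BCAT-2 (161), IAA3 (536) and LHCB2.3 (595), so their values are less certain. The same holds for COR15B (468), LHCB1.3 (108), WRKY33 (49), FKF1 (21), RAB18 (11) and RCA (3). The chaperones HSP90.1 and HSP17.6A rose with valinomycin and with both but had no called interaction: HSP90.1 had means of 12.6, 185, 12 and 146 FPKM (interaction -0.16 ± 0.4), and HSP17.6A 1.17, 109, 2.44 and 122 (interaction -0.46 ± 0.39).

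Responses to valinomycin were also reduced by DC3000, in fewer genes. A valinomycin rise was called smaller with DC3000 in 256 genes (1.42%), of which 118 kept the class after median-of-ratios scaling and 127 held it in all. FLS2 (AT5G46330; chromosome 5, 18791575 to 18795908, plus strand), the receptor for bacterial flagellin, had 1.62, 1.66 and 1.14 FPKM in mock, 22.7, 14.8 and 9.1 with valinomycin, 2.15, 2.13 and 3.32 with DC3000, and 4.69, 4.72 and 4.54 with both. Every library with the combination lay below every valinomycin library (interaction -1.97 ± 0.35, limma adjusted p = 0.00114). Its exons overlap an antisense gene by 172 bases. AZI1, a lipid transfer-like protein of systemic immunity, had 344, 437 and 244 FPKM after valinomycin, 66.3, 89.5 and 64.6 after DC3000 and 217, 194 and 178 with both, from 5.51, 3.83 and 4.78 in mock (interaction -4.46 ± 0.28, limma adjusted p = 1.37e-07). AT2G33830, a dormancy and auxin associated protein, had means of 54.8, 2130, 744 and 1370 FPKM in mock, valinomycin, DC3000 and both. KUP9, a potassium transporter, had 3.79, 13.3, 7.26 and 8.07 and counted as saturation after scaling.

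In pattern-triggered immunity, the defence set off by bacterial surface molecules, 5 of 27 tested genes had a lower interaction by limma, near the 19.4% of all tested genes, and 0 a higher one (8 and 2 at an unadjusted p under 0.05): FLS2 and WRKY11 by antagonism, and FRK1, WRKY40 and MKK9 by saturation. Valinomycin alone raised 24 of the 27 (38.5% of all tested genes). With both treatments 22 were higher than with DC3000 alone (14.1% of all tested genes), a comparison that includes the effect of valinomycin itself. With both treatments 3 were lower than with valinomycin alone (10.4% of all tested genes). Without valinomycin replicate 3 the count called lower was 14 of 27, 5 by antagonism and 9 by saturation. The median of the list was -0.61 (-0.33 after scaling, when 2 were higher and 4 lower). In the salicylic acid list 1 of 17 was called (24.7% of all tested genes), EDS1, and that call was lost in 10 of 22 other settings.

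A valinomycin fall was called smaller with DC3000 in 13 genes (0.072%), and 12 of them kept the class after scaling. AT3G21670, a transporter of the family that carries nitrate, had 34.6, 31.4 and 21.2 FPKM in mock and 6.01, 6.11 and 5.7 with valinomycin. With DC3000 it had 63.8, 75.4 and 44.3, and with both 35.2, 24.9 and 36.5 (interaction 1.2 ± 0.3, limma adjusted p = 0.0116). The single agents thus moved it in opposite directions and the combination overlapped mock. HEMA1, an enzyme at the start of chlorophyll synthesis, had means of 308, 123, 208 and 187 FPKM in mock, valinomycin, DC3000 and both.

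Saturation was the commonest pattern: 2280 genes (12.6% of those tested) rose with each agent and 654 (3.62%) fell with each. Both treatments were not called different from the larger single effect in 2235 of the 2280 and in 607 of the 654. The class is wider than its name: in 238 of the 2280 and 10 of the 654 the combination was not called different from mock. In 87 of the 2280 all libraries given both treatments lay below all single-treatment libraries. The median rise in the first class was 1 after valinomycin, 1.04 after DC3000 and 1.06 with both treatments, on the log2 scale. The median fall in the second was 1.11, 1.37 and 1.46. After scaling 1299 and 634 of these genes kept their class.

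The circadian clock list held large interactions of this class. In it mock often stood apart from all treated groups. Anything that set mock apart from every treated group would also count as saturation. The sample values used here give 6 h for all groups and no clock hour of harvest, and this was not tested. Of 19 tested clock genes 16 had a called interaction (24.7% of all tested genes), 6 higher and 10 lower, with 9 saturated rises and 2 saturated falls. PRR5 (AT5G24470; chromosome 5, 8356204 to 8358546, minus strand), a repressor of the afternoon, had 0.732, 0.692 and 0.535 FPKM in mock. It had 39.7, 43.7 and 43 after valinomycin, 63.6, 62.9 and 44.1 after DC3000 and 54.3, 52.6 and 53.3 with both. The treated groups lay close together and far above mock (interaction -4.78 ± 0.21, limma adjusted p = 1.14e-08). The evening genes GI, ELF4, LUX, FKF1, TOC1 and PRR3 did likewise. CCL (AT3G26740; chromosome 3, 9827682 to 9828917, plus strand), a gene whose transcript is controlled by the clock, had means of 24.2 ± 7.19 FPKM in mock, 1480 ± 158 after valinomycin, 1120 ± 46.2 after DC3000 and 1150 ± 93.3 with both, the largest absolute interaction among saturated rises over 10 FPKM (-5.88 ± 0.26). The morning genes fell into different classes by their calls, and differences between these genes were not tested. LHY counted as a saturated fall (303, 291 and 206 FPKM in mock, 17.3, 6.36 and 3.7 with valinomycin, 0.923, 0.88 and 2.11 with DC3000, 2.53, 4 and 1.98 with both). Exact addition of its log2 falls would put LHY at -0.927 FPKM with both treatments. No level can lie below 0, so part of its higher interaction was fixed in advance. The same holds for CCA1. CCA1, RVE8, PRR9 and LNK2 counted as antagonism of a DC3000 fall, since with both treatments they were called higher than with DC3000. For LHY that log2 difference was 0.74 ± 0.38 and was not called (limma adjusted p = 0.16). LNK2 had 40, 31.7 and 35.9 FPKM with DC3000 and 71.3, 82.9 and 78.1 with both, from 325, 283 and 233 in mock.

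The promoters of PRR5 and CCL are shown as those of saturated genes with the evening element AAAATATCT, a clock element bound by CCA1 and LHY. They were picked for holding it, and the same window of GI held 0 copies. Capitals mark it, on either strand, in the 250 bases before the start, from chr5:8358547-8358796 (minus strand) and chr3:9827432-9827681 (plus strand) of TAIR10.1 (RefSeq).
PRR5: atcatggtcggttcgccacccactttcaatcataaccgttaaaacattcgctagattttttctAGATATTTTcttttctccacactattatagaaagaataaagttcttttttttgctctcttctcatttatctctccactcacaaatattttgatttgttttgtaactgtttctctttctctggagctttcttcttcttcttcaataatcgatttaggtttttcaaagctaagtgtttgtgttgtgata
CCL: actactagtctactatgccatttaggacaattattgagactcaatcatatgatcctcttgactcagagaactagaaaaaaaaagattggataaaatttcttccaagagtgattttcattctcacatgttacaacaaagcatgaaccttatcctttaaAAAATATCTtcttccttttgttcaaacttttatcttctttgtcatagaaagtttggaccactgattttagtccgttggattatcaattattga
The element was in 2.52% of the 17870 promoters, in 5.75% of those of saturated rises, in 1.55% of those of saturated falls and in 4 of 19 clock genes. These are descriptions with no test.

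Other stress genes rose with each agent without adding up. WRKY40, a regulator of defence and abscisic acid responses, had 1.41, 1.92 and 2.91 FPKM in mock, 262, 174 and 72.1 with valinomycin, 145, 100 and 66 with DC3000, and 158, 192 and 150 with both (interaction -4.89 ± 0.52, limma adjusted p = 1.88e-05). The ZAT and AZF zinc fingers had 6 of 9 members in this class (12.6% of all tested genes), among them ZAT10 with means of 2.35, 44.3, 36.9 and 49.9 FPKM. In the ethylene list 7 of 20 and in the camalexin and tryptophan list 7 of 14 were called lower, all by saturation, against 19.4% of all tested genes. Without valinomycin replicate 3 the ethylene list had 11 called lower, 1 of them by antagonism. After median-of-ratios scaling the camalexin and tryptophan list had 4 lower and 1 higher. GSTF6, a glutathione transferase of camalexin synthesis, had means of 5.81, 454, 78 and 391 FPKM.

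Among genes that fell, LHCB2.3, a light-harvesting protein, had 937, 927 and 843 FPKM in mock, 169, 170 and 270 with valinomycin, 174, 165 and 195 with DC3000, and 73, 61.4 and 104 with both. The combination was lower than each single treatment, yet the fall was smaller than the sum of the log2 effects (interaction 0.99 ± 0.28, limma adjusted p = 0.0208). Of 42 photosynthesis genes 32 were lower with both treatments than with DC3000 and 33 lower than with valinomycin, against 13.5% and 10.4% of all tested genes. A called interaction was found in 9 of the 42, near the 24.7% of all tested genes, 5 higher and 4 lower (11 and 1 after scaling). The auxin response list had 6 of 16 higher (5.25% of all tested genes), 5 of them saturated falls, with IAA3 at means of 59, 20.9, 11.4 and 11.2 FPKM. The summed mesophyll markers given above moved with these falls, and their part in the result was not tested. In the mitochondrial stress list 3 of 18 had a called interaction (24.7% of all tested genes did), and 11 did without valinomycin replicate 3, 1 higher and 10 lower. In the same list 16 were higher with both treatments than with DC3000 (14.1% of all tested genes), and valinomycin alone raised 17 (38.5% of all tested genes). AOX1A, the alternative oxidase that marks mitochondrial stress, had means of 4.37, 250, 14.4 and 246 FPKM, and its interaction of -1.43 ± 0.45 (limma adjusted p = 0.0338) was lost in 11 of 22 other settings. CYP81D8, WRKY33 and PAD3 had no called interaction, with values of -1.27 ± 0.71, -1.16 ± 0.69 and 0.24 ± 0.4, which does not show that their effects add.

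The scale decides what counts as less than additive. On FPKM without logarithm, the departure from addition (both minus valinomycin minus DC3000 plus mock) was negative in 2219 of the 2280 saturated rises and positive in 61. It was positive in all 654 saturated falls, in all 9 synergy genes called higher and in 232 of 234 antagonized DC3000 falls, and negative in all 80 synergy genes called lower. For saturated falls and the synergy genes called higher the class rule fixes this sign, apart from averaging over libraries. Those counts are therefore no separate check. The rule constrains the sign in part for the antagonized falls and the synergy genes called lower. In 44 of the 2280 saturated rises the combination was also called higher than each single treatment. GSTU4, a glutathione transferase that detoxifies foreign compounds, was such a gene. It had 3.6, 2.15 and 0.888 FPKM in mock, 69.4, 45.5 and 29.3 with valinomycin, 60.1, 46.8 and 38.2 with DC3000, and 143, 195 and 145 with both. The combination was 3.35-fold above valinomycin and 3.33-fold above DC3000, 66.6 FPKM more than the sum of the single rises, although on the log2 scale it fell short of addition (interaction -2.22 ± 0.45, limma adjusted p = 0.00303). BCAT-2, an enzyme that degrades branched-chain amino acids, ERF1A, an ethylene response factor, and CML41, a calmodulin-like protein, also exceeded the linear sum, with means of 158, 56.5 and 58.3 FPKM with both treatments against 78.2, 27.5 and 27.3 with valinomycin and 42.3, 18.9 and 17.7 with DC3000. HSFA2 was an exception among antagonized falls, with a linear departure of -1.56 FPKM.

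A wider group than synergy was lower with both treatments than with each agent alone: 167 genes (0.925%) with a lower interaction. In 158 of them all 3 combined libraries lay below all 6 single-treatment libraries. The genes were chosen by calls on these same libraries, so that count describes the choice and adds no support. Against mock, 80 of the 167 were lower, which is the synergy class, 74 were not called and 13 were still higher, and in 54 both single treatments were called higher than mock. AT5G47330, an alpha/beta hydrolase, had 0.637, 0.614 and 0.273 FPKM in mock, 9.73, 16.2 and 13.9 with valinomycin, 13, 19.3 and 18 with DC3000, and 3.57, 2.85 and 2.73 with both (interaction -5.34 ± 0.28, limma adjusted p = 2.1e-08). AT4G30650, of a family of small membrane proteins responsive to cold and salt, had means of 3.64, 37.3, 61.1 and 12 FPKM. In the opposite direction 11 genes (0.0609%) with a higher interaction were called above each single treatment.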

How the data were processed

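The authors deposited 1 table of normalized values. Its unit is not stated; FPKM was inferred from the deposited values, whose library totals differ and are too large for TPM. The submitters' processing notes name TAIR10, and libraries came from a CORALL total RNA-seq kit per the labels' protocols. The sources used here do not give the aligner, the quantifier or the strand setting. No deposited value is 0. Sequencing depth is unknown.

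Values were transformed as log2(FPKM + 1), so changes of low genes are understated. Where the falls of the single treatments add to less than 0 FPKM, a higher interaction is fixed by the floor of 0. Folds between group means are ratios of mean FPKM. Genes with a mean of at least 1 were fitted in limma 3.58.1 (R 4.3.3) with 4 group means, 8 residual degrees of freedom, empirical Bayes and a mean trend. The Benjamini-Hochberg threshold was 0.05. Nothing says that libraries came from separate plants, so p-values reflect only the spread among these libraries, which may be technical.

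Named genes were, per class, the 4 with the largest absolute interaction and a highest group mean of at least 10 FPKM, up to 2 called members per list by the same measure, and a fixed set, 89 in all. The genes, gene lists and rules were chosen with earlier results of these data known. Other list members are named as members. Near-identical transcripts (95% identity over 50% of the length, blastn 2.17.0) were found for 0 named genes, and exon overlaps were found with bedtools 2.31.1 (14 named genes overlap an exon of the opposite strand, as do other list members). Alternatives were other pseudocounts, filters, scalings, variance settings, a 2-fold condition, a replicate block and each library left out. Promoters and coordinates are from TAIR10.1.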

Additional observations from a re-analysis of the deposited data

Results flagged for a closer look

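The valinomycin effect differed with and without DC3000, by limma's test of the difference itself, in 4449 of 18048 genes. By the calls of the single comparisons these include 9 genes of synergy towards a higher and 80 towards a lower level. They include 256 genes in which a valinomycin rise was smaller with DC3000 and 13 in which a valinomycin fall was. A DC3000 rise was smaller with valinomycin in 557 genes and a DC3000 fall in 234. Saturation held 2280 genes that rose and 654 that fell with each agent.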

How the results depend on the processing

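With the deposited values 4449 interactions were called, 947 higher and 3502 lower. Median-of-ratios scaling gave 2476 higher and 2207 lower, 66 genes of synergy higher, 49 of synergy lower, antagonism of 127 valinomycin rises, 92 valinomycin falls and 533 DC3000 falls, and saturation of 1315 rises and 1687 falls. Scaling to the total of nuclear genes gave 35 genes of synergy lower, antagonism of 291 DC3000 rises and 239 unresolved. Array weights gave 8174 calls, 1817 higher and 6357 lower, with 37 and 286 genes of synergy higher and lower, antagonism of 976 valinomycin rises, 56 valinomycin falls, 1445 DC3000 rises and 465 DC3000 falls, 1178 saturated falls and 613 unresolved. Synergy higher held 5 genes with a pseudocount of 0.1 and 3 with a minimum mean of 5. A condition of 2-fold differences left 5 and 14 genes of synergy, antagonism of 50 valinomycin rises, 5 valinomycin falls, 123 DC3000 rises and 110 DC3000 falls, and 856 unresolved. The causes of these moves were not tested.

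Leaving out each library in turn gave 3064 to 4872 calls, 697 to 1169 higher and 2341 to 4118 lower. Synergy higher held 3 to 18 genes (lowest without the combined replicate 2, highest without valinomycin replicate 1) and synergy lower 35 to 132 (without DC3000 replicate 2 and without valinomycin replicate 1). Antagonism held 113 to 376 valinomycin rises (without the combined replicate 3 and without valinomycin replicate 3), 3 to 18 valinomycin falls (without the combined replicate 1 and without valinomycin replicate 1), 205 to 772 DC3000 rises (without DC3000 replicates 2 and 3) and 155 to 308 DC3000 falls. Saturation held 1578 to 2710 rises and 466 to 808 falls, and 244 to 443 were unresolved. Without mock replicate 3 the median interaction was -0.188.

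Same-numbered libraries of different groups had correlated deviations in 3 of 18 pairs (r over 0.1, range -0.242 to 0.439), so the numbers were not taken to pair samples. The replicate block gave 4954 calls and no count that moved by over 1.5 times. Of 85 called named genes 75 kept their call in all alternatives and 81 after median-of-ratios scaling, and 76 of 84 classified genes kept their class there. Only the uncalled interaction of PAD3 changed sign: -0.75 and -0.06 with pseudocounts of 0.1 and 0.5, -0.02 with array weights, -0.09 without valinomycin replicate 3 and -0.09 without the combined replicate 2 (-0.09 to 0.47 over all libraries left out).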
